A study of Mus musculus with 4 samples.

Results

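Oxidative phosphorylation was described through 106 genes in PDGFRβ+ stromal cells of the mouse small intestine after loss of LATS1 and LATS2. The members were all genes whose symbol begins with Nduf, Uqcr, Sdh, Atp5, Cox4, Cox5, Cox6, Cox7, Cox8 or mt-, without Ndufa4l2, that had at least 1 unique molecular identifier (UMI, a counted transcript) in any cell. They comprised 93 nuclear genes and 13 genes of the mitochondrial genome, out of 17406 genes with a UMI. The study sequenced single sorted cells of 3 groups in 4 libraries, and the values below come from its LATS1/2 KO 1w library, named for 1 week of knockout. Its mice were adult C57BL/6J carrying Pdgfrb-CreERT2, a tdTomato reporter, Lats1 f/f and Lats2 f/f, sampled 1 week after tamoxifen. Apart from the marks M and F described below, no cell was tied to a mouse, and the number of mice behind this library is not given here. The Cre acts in cells with an active Pdgfrb promoter, and the Tomato+ cells were sorted, so cells that never used this promoter were not sampled. The wild-type libraries and the 2-week LATS1/2 KO library were not analysed here, and no difference between genotypes was measured.

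Oxidative phosphorylation makes ATP in the inner mitochondrial membrane. Complexes I (Nduf genes), II (Sdh), III (Uqcr) and IV (Cox) pass electrons to oxygen, and complexes I, III and IV pump protons that drive ATP synthase, complex V (Atp5). Most subunits are encoded in the nucleus, while the mitochondrial genome encodes core subunits of complexes I, III, IV and V and none of complex II. LATS1 and LATS2 are the Hippo kinases that restrain YAP and TAZ, and Amotl2 is a well known YAP/TAZ target gene.

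The targeted genes stood at 14.24 CPM (Lats1) and 53.55 CPM (Lats2), but 3-prime counts do not read the deleted exons, so these values do not check the knockout. The library held 4108 cells with a median of 10726 UMIs, from 1965 to 35727. Columns marked M (1983 cells) and F (2125 cells) are a split of this 1 library by Xist, shared 0 barcodes, and were not treated as replicates. Every cell had a Pdgfrb UMI, while Ptprc had 22 UMIs, Epcam 4 and Pecam1 0 in the library. The authors had removed Ptprc+ immune and Pecam1+ endothelial cells, so the counts of these genes do not check for such cells. In the clusters described below, 5 immune markers (Ptprc, Cd52, Lyz2, Cd74 and Cd3e) summed to 21.26 to 58.83 CPM. The epithelial markers summed to at most 1.720 CPM and the endothelial markers to at most 15.84 CPM. Levels are given as counts per 1000000 UMIs (CPM) with exact 95% intervals that cover counting error only. With 1 library, no spread between mice was measured and no p-value was computed, and all comparisons of cells below are descriptions of this library. The authors had removed cells above 7% mitochondrial UMIs, which caps the level of the mt- genes in every cell.

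The nuclear members took 1.906% of all UMIs (877793 UMIs, 19060 CPM), and the 13 mt- members took 4.828% (2223295 UMIs, 48275 CPM). By complex, the 30 accessory subunits of complex I summed to 5931 CPM, the 16 complex V genes to 5172 CPM, the 16 complex IV genes to 4692 CPM and the 8 complex III genes to 1781 CPM. The 7 nuclear core subunits of complex I, which carry its flavin and iron-sulfur groups, summed to 772.1 CPM. Complex II (4 genes) summed to 357.9 CPM, its 4 assembly factors to 117.1 CPM and the 8 complex I assembly factors to 236.0 CPM. The kit tags transcripts at their 3-prime ends, so these levels count molecules and were not divided by length.

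The 10 nuclear members with the most UMIs were small subunits of complexes I, III, IV and V. Cox7c (757.0 CPM), Cox4i1 (699.6 CPM), Cox8a (662.1 CPM) and Cox6c (619.1 CPM) encode complex IV subunits. Atp5e (636.9 CPM), Atp5l (482.2 CPM), Atp5h (455.1 CPM) and Atp5j (419.5 CPM) encode subunits of ATP synthase. Ndufa4 stood at 464.0 CPM and Uqcrh, the hinge subunit of complex III, at 440.8 CPM. Ndufa4 was counted with complex I by its symbol, although its protein is now placed with complex IV. At the low end, 3 members had under 50 UMIs, namely Cox6a2 (1 UMI), Cox8b (13 UMIs) and Cox7a1 (42 UMIs), which are known as the heart and skeletal muscle forms of their subunits.

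Among the mt- members, mt-Atp6 was highest with 11426 CPM, followed by mt-Co3 (9074 CPM), mt-Co2 (6674 CPM), mt-Cytb (5590 CPM) and mt-Co1 (5565 CPM). The complex I genes were lower, with mt-Nd4 at 3274 CPM, mt-Nd2 at 2424 CPM, mt-Nd1 at 1564 CPM, mt-Nd3 at 942.0 CPM, mt-Nd5 at 693.1 CPM and mt-Nd4l at 626.2 CPM. The lowest was mt-Nd6 (23.17 CPM), which is the only 1 of the 13 encoded on the minus strand of the annotation. In GENCODE M21 (mm10), mt-Atp8 (chromosome M, 7766 to 7969; 400.9 CPM) overlaps mt-Atp6 (7927 to 8607), and mt-Nd4l (9877 to 10173) overlaps mt-Nd4 (10167 to 11544). Reads in these overlaps could be split either way, so the levels of these 4 genes are uncertain.

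Promoter windows of 4 members that lead the results below are shown because they hold letter motifs of factors known to act on respiratory genes. The windows are from RefSeq (GRCm38.p6), run from 250 bases before to 50 bases after the annotated start, and are written 5′ to 3′ on the gene's strand with each motif match in capitals. Cox6a1 and Ndufaf4 hold the NRF1 motif GCGCATGCG, Uqcr11 holds its reverse complement beside the GABPA motif CCGGAAGT, and Cox8a holds the GABPA motif at 2 places in reverse.
Cox6a1, chr5:115348909-115349208, strand minus: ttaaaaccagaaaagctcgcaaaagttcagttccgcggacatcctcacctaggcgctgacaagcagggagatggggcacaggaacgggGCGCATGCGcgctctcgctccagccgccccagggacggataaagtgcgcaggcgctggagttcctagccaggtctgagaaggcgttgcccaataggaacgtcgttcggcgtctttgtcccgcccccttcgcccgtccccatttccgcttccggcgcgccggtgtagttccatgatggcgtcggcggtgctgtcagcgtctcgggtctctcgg
Ndufaf4, chr4:24897833-24898132, strand plus: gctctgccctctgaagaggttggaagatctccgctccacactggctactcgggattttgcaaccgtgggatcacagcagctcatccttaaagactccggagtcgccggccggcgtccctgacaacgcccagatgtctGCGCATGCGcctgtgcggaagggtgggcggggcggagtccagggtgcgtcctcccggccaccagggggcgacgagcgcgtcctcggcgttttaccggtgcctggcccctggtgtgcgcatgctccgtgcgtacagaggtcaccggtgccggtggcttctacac
Uqcr11, chr10:80406772-80407071, strand minus: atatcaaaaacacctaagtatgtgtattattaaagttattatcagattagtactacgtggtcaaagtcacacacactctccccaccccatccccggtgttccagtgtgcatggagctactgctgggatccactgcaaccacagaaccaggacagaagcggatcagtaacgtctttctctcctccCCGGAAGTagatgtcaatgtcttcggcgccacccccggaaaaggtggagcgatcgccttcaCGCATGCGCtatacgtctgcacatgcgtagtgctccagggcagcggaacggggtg
Cox8a, chr19:7217567-7217866, strand minus: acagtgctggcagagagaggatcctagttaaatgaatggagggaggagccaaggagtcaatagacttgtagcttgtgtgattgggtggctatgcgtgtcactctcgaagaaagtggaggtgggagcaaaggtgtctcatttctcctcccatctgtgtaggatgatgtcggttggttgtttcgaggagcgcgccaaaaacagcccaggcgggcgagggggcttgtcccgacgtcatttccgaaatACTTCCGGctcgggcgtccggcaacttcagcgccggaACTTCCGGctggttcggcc
Of the 93 nuclear members, 76 had a window in the table, with 81 windows in all. Searched on both strands, GCGCATGCG was present in 10 of the 81 windows (12.35%) and in 1.750% of all 32851 windows of the same length. The YY1 motif AAGATGGCG was present in 8 (9.877%) against 1.403%, and CCGGAAGT in 5 (6.173%) against 3.887%. For GGAATG, the core letters of TEAD, the DNA-binding partner of YAP and TAZ, the numbers were 9 (11.11%) against 14.66%. These shares describe letters in a window and were not tested, and they say nothing of binding in these cells.

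To follow the members across stromal cell types, cells were clustered with the 106 genes left out of the variable genes, and clusters were named from marker genes of the study's cell types. The mitochondrial percent, which sums the 13 mt- members, was regressed out first. With only the UMI count regressed out, the mt- ratio of the highest over the lowest cluster was 1.392 (1.378–1.405), against 1.378 here. Of the 10 clusters, 5 carried every marker of a list. Cluster 3 (690 cells) was FB4-like with Ackr4, Grem1, Cilp and C3, the fibroblasts of the submucosa. Cluster 7 (205 cells) was FB5-like with Foxl1, Sox6, Bmp5, Bmp7 and Wif1, genes of fibroblasts that line the epithelium. Cluster 8 (76 cells) was SMC-like with the contractile genes Cnn1, Actg2, Myh11 and Des, and cluster 9 (69 cells) was MC-like with the mural genes Vtn, Rgs5, Cspg4 and Notch3. Cluster 10 (45 cells) was vFB3-like with Tacr1, P2rx1, Itga8, Mmp10 and Fhl2. In the MC-like cluster 5 of 7 SMC markers also counted, and the 7 summed to 12549 CPM against 3918 CPM for its own 6 markers. In the FB5-like cluster 4 of 7 did, with a summed 7144 CPM against 1113 CPM for its own 5 markers. The FB5-like cluster also had Kcnj8 and Abcc9, genes known from pericytes, among its 10 leading genes. Ano1, a marker of interstitial cells of Cajal, was among the 10 leading genes of the MC-like cluster. The 3 markers listed for the villus fibroblasts vFB1-2 (Adamdec1, Shisa3 and Serpina3n) summed to 4336 CPM in the SMC-like cluster, against 23619 CPM for its own 7 markers. They summed to 4229 to 6706 CPM in clusters 1, 2, 4, 5 and 6 and to 539.1 to 1925 CPM in the other named clusters. No cluster met the naming rule for this list. Clusters 1, 2, 4, 5 and 6 stayed without a name and are called by number: Tex14 and Vegfc were among the leading genes of cluster 1, Il1b of cluster 2, Cyr61 of cluster 4, Cxcl10 and Fosb of cluster 5 and Agt of cluster 6.

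In these clusters the nuclear members were highest in SMC-like cells and lowest in FB4-like cells, and the first place depended on the setting. SMC-like cells had 25397 CPM (25038–25759), FB5-like cells 23282 CPM (23093–23472) and cluster 1 22251 CPM (22154–22349). These were followed by MC-like cells with 21737 CPM (21356–22124) and vFB3-like cells with 21440 CPM (21065–21820), which did not differ beyond counting error (ratio 1.014, 0.9889–1.039). Clusters 2, 6, 4 and 5 lay between 19230 and 16517 CPM, and FB4-like cells had 16310 CPM (16225–16396). The highest over the lowest cluster gave a ratio of 1.557 (1.534–1.581). With a marker gate on each cell in place of clusters, 542 cells were SMC-like, of which 76 lay in the SMC-like cluster, so the gate mostly describes other cells. Their nuclear ratio to all other cells was 1.136 (1.129–1.142), below 1.234 (1.224–1.245) in FB5-like and 1.182 (1.170–1.194) in vFB3-like cells. Their mt- ratio was then 1.073 (1.069–1.077), against 1.191 (1.184–1.198) in FB5-like cells. Of the 83 nuclear members with at least 1000 UMIs, 44.58% had their highest level in SMC-like cells, against 13.79% of all 5773 such genes, and 19.28% in FB5-like cells, against 15.47%. In MC-like and vFB3-like cells the members' share was 12.05% each, below the 15.17% and 22.45% of all genes. The lowest level was in cluster 5 for 44.58% of the members, against 6.929% of all genes, and in the FB4-like cluster for 33.73%, against 16.98%. The clusters of 76, 69 and 45 cells carry the most counting error.

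The mt- members kept much the same order. SMC-like (58145 CPM, 57602–58692), FB5-like (57163 CPM, 56867–57461) and MC-like cells (56177 CPM, 55562–56796) stood above all other clusters, vFB3-like cells had 51818 CPM (51234–52406) and FB4-like cells were lowest with 42183 CPM (42046–42321). Over the 10 clusters, which share a library and a total, nuclear and mt- levels correlated with r = 0.890, and over single cells with r = 0.347. Cluster 1 departed from the order, since it was the third in nuclear level but the sixth in mt- level (49753 CPM), with 2.236 mt- UMIs per nuclear UMI against 2.901 in cluster 5. Cells within 1 percentage point of the 7% limit made up 47.37% of SMC-like, 40.00% of FB5-like and 33.33% of MC-like cells but 4.203% of FB4-like cells, so the cap touched the clusters with the highest levels most.

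**Figure D1:**
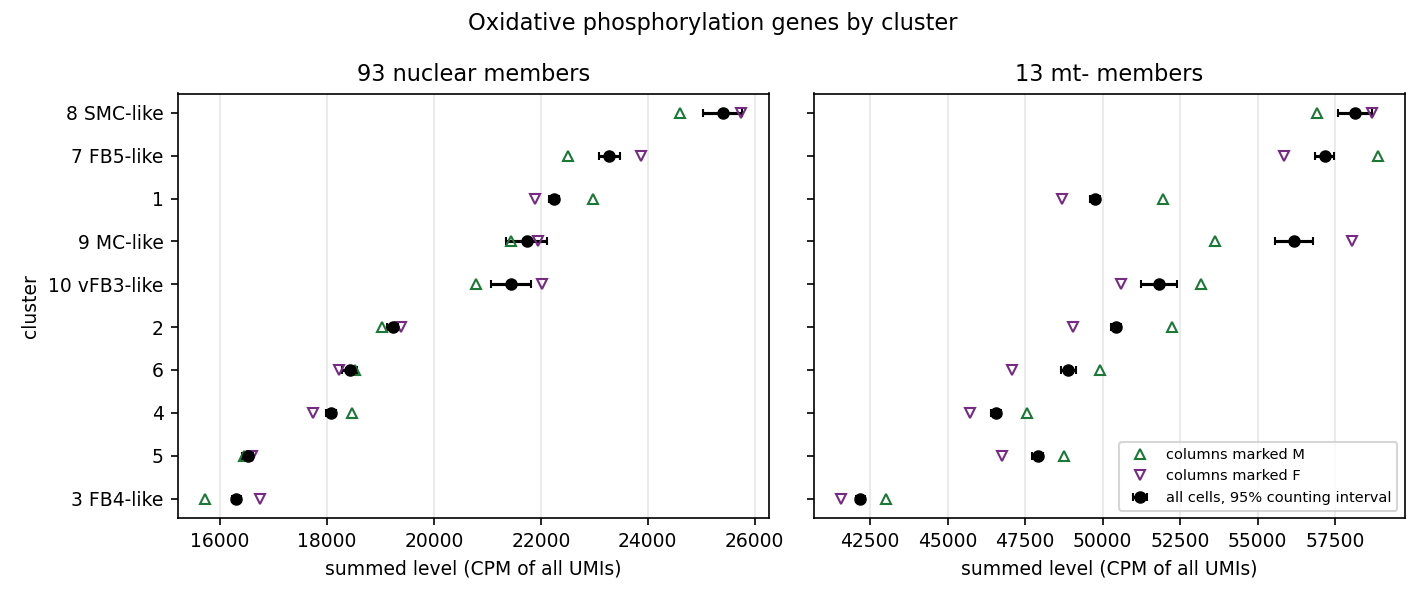
Summed level of the 93 nuclear members (left) and the 13 mt- members (right) in each of the 10 clusters, in CPM of all UMIs on axes that start above 0. Black points are all cells of a cluster with exact 95% counting intervals and triangles are the columns marked M and F. Clusters are ordered by nuclear level, and FB4-like cells are lowest in both panels.

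The ratios to all other cells pointed the same way in columns marked M and F for each named cluster. For the nuclear members they were 1.318 and 1.341 in SMC-like, 1.215 and 1.252 in FB5-like, 1.147 and 1.137 in MC-like, 1.112 and 1.141 in vFB3-like and 0.8115 and 0.8399 in FB4-like cells. When cells were limited to 5% mitochondrial UMIs, 8 SMC-like cells were left and their nuclear ratio was 1.003 (0.9519–1.057), against 1.340 (1.321–1.359) in all cells. Cluster 1 then had the highest nuclear level, with 21992 CPM (ratio 1.278, 1.270–1.287). Under the same limit the FB5-like ratio was 1.193 with 38 cells, the MC-like ratio 1.148 with 24 cells and the FB4-like ratio 0.8684 with 549 cells. The mt- level of MC-like cells then changed side, from 1.166 (1.153–1.179) times that of other cells to 0.9838 (0.9586–1.010).

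In SMC-like cells complexes I, III and IV stood well above their level in other cells. Members were called higher or lower here at a 1.3-fold difference from all other cells, among the 5773 genes with at least 1000 UMIs, which included 83 nuclear and all 13 mt- members. In SMC-like cells 40 of the 83 were higher (all genes: 19.6%) and 2 lower (all genes: 25.3%), with a median ratio of 1.290 against 1.004 over all genes. Complex IV genes summed to 6721 CPM against 4658 CPM in other cells (ratio 1.443, 1.403–1.484), complex III to 1.418 times (1.354–1.484), the complex I accessory subunits to 1.362 times (1.327–1.397) and complex V to 1.237 times (1.202–1.273) the level elsewhere. The intervals of complexes IV and III overlapped.

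Its leading members were small structural subunits. Cox6a1 had 320.2 CPM against 173.8 CPM (ratio 1.842, 1.614–2.094), and Ndufb9, a complex I accessory subunit, had 576.6 CPM against 314.8 CPM (1.831, 1.661–2.015). Cox8a followed with 1154 CPM against 653.9 CPM (1.765, 1.648–1.889), then Uqcr11 (1.638) and Cox5b (1.635). Cox6a1 was higher by 1.953 (1.540–2.444) in columns marked M and by 1.793 (1.524–2.096) in columns marked F. The 2 lower members were Cox6b2 (0.5770, 0.3990–0.8079) and Sdhaf4, a complex II assembly factor, on 20 UMIs (0.6230, 0.3797–0.9649).

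**Figure D2:**
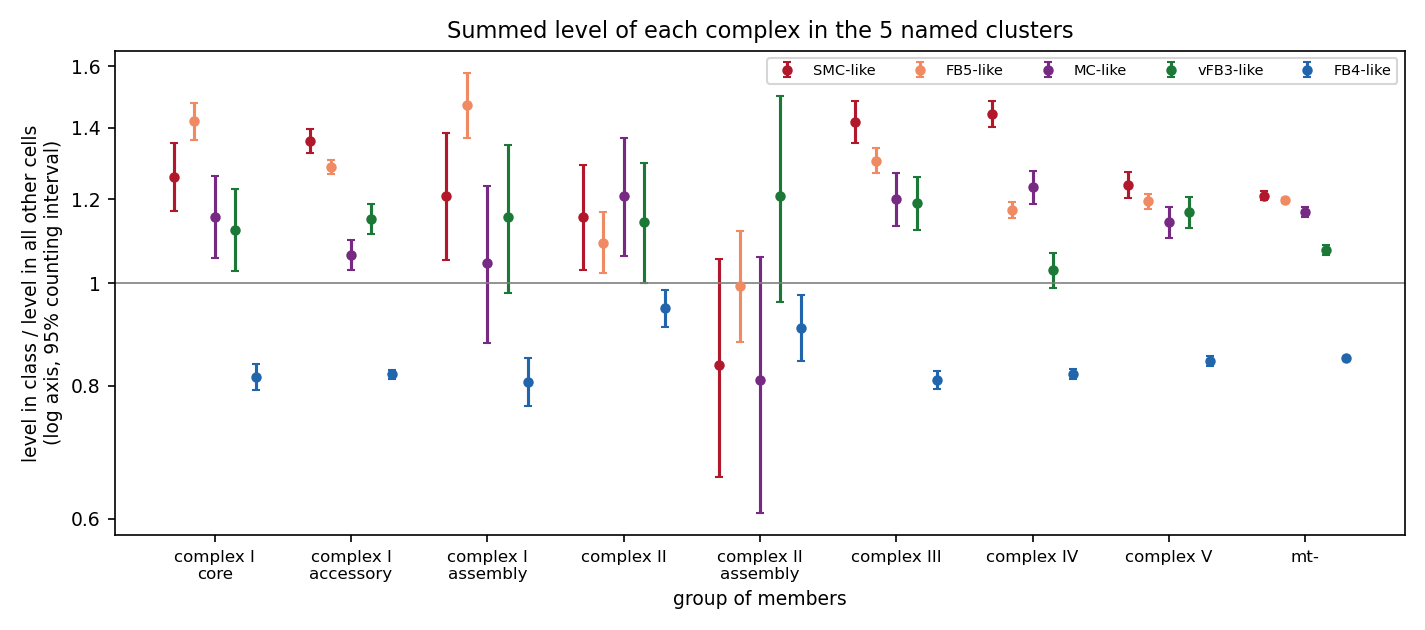
Summed level of each complex in a named cluster divided by its level in all other cells, on a log axis, with exact 95% counting intervals; colours mark the 5 named clusters. Complex IV reaches 1.443 in SMC-like cells, complex I core and assembly genes stand highest in FB5-like cells, and FB4-like cells lie below 1 in each group.

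In FB5-like cells the core and assembly genes of complex I stood highest. Of the 83 nuclear members 25 were higher (all genes: 21.4%) and 1 lower (all genes: 20.6%), with a median ratio of 1.244 against 1.039 over all genes. Complex I core genes summed to 1072 CPM against 754.9 CPM (ratio 1.420, 1.364–1.477) and complex I assembly factors to 338.5 CPM against 230.1 CPM (1.471, 1.370–1.578). The 30 accessory subunits of complex I had a ratio of 1.287 (1.268–1.306), near the 1.304 (1.269–1.339) of complex III, and complex IV 1.173 (1.152–1.193).

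The complex I assembly factors Ndufaf2 (2.032, 1.758–2.339) and Ndufaf4 (1.847, 1.533–2.210) were among the highest members in these cells, with Uqcrq of complex III (1.740) and Ndufa12 (1.708) below them. Ndufa12 and Ndufaf2 are related proteins, of which the assembly factor is known to hold the place of the subunit while complex I is built. Cox4i1 was at the level of other cells, with 699.9 CPM against 699.6 CPM (interval of the ratio 0.9528–1.050). The 1 lower member was Cox6b2 (0.6463, 0.5375–0.7711).

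Several other lists of energy genes also stood above other cells, against a share of 21.4% of all genes higher in FB5-like cells. Of 10 glycolysis genes above the count minimum 7 were higher, among them Gapdh (1.703, 1.625–1.785) and Pgam1 (1.757, 1.611–1.914), and the list summed to 2541 CPM against 1684 CPM. Of 11 carriers and channels 6 were higher, including Slc25a4, the ADP/ATP carrier (1.847, 1.768–1.928). Higd1a, a hypoxia-inducible gene known to act on complex IV, had 414.2 CPM in FB5-like cells and 48.00 to 132.8 CPM in the other 9 clusters. Pdk1, which restrains pyruvate dehydrogenase, stood at 28.41 CPM against 1.328 to 12.04 CPM elsewhere. Mitochondrial ribosomal protein genes summed to 1.251 times the level of other cells (1.229–1.273), whereas cytosolic ribosomal protein genes summed to 0.8386 times. Not every list was higher, since the mitochondrial biogenesis list stood at 0.8453 (0.7777–0.9174), with its coactivator Ppargc1a at 0.1609 (0.03301–0.4744), and Pdha1 of the pyruvate dehydrogenase complex at 0.7427 (0.6456–0.8507).

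MC-like cells were set apart by a pair of alternative subunits. Cox4i2, the form of complex IV subunit 4 known from lung and oxygen-sensing cells, had 186 UMIs in the library, and 154 of them were in the 69 MC-like cells. Its level was 271.0 CPM (229.9–317.3) there against 0.7035 CPM in all other cells (ratio 385.2, 261.8–582.8). Cox4i2 made up 25.33% (21.92–28.98) of Cox4 UMIs in MC-like cells, 1.489% (0.5483–3.212) in vFB3-like cells, 0.5685% in FB5-like cells and at most 0.1285% in the other 7 clusters. Cox4i1 was not lower in exchange, with 798.8 CPM against 698.4 CPM (1.144, 1.040–1.255).

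After each cell was thinned to 5000 UMIs, 27 of 48 MC-like cells (56.25%, 41.18–70.52) had a Cox4i2 UMI, against 12 of 3966 other cells (0.3026%, 0.1564–0.5279). Of these 12, 5 were among 200 FB5-like cells (2.500%, 0.8166–5.737). Whether the UMIs of the 12 cells came from free RNA was not tested. Before thinning the shares were 69.57% and 0.7180%, at median depths of 6793 and 10770 UMIs. The Cox4i2 share differed between the marks, with 34.66% (28.79–40.90) in 30 cells marked M and 18.77% (14.85–23.21) in 39 cells marked F, both far above the other clusters. The gene lies on chromosome 2 from 152754173 (mm10), and Cox4i1 on chromosome 8 from 120668222.

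Ndufa4 was low in the same cells. It had 244.6 CPM (205.6–288.8) in MC-like cells and 348.8 to 657.6 CPM in the other 9 clusters, which made it the lowest ratio of any tested nuclear member in these cells (0.5240, 0.4402–0.6190). The ratio was 0.3700 (0.2642–0.5042) in columns marked M and 0.6282 (0.5102–0.7655) in columns marked F. Its paralog Ndufa4l2, a hypoxia-inducible gene that the choice of members leaves out, had 596.5 CPM (534.7–663.5) in MC-like cells and at most 14.47 CPM elsewhere, so that 70.92% (66.62–74.96) of the UMIs of this pair were Ndufa4l2 in MC-like cells. In clusters 3 and 2 its shares were 3.825% and 0.8890%. Reads of close paralogs can be hard to assign, and how the counting treated them was not given in the sources used here.

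**Figure D3:**
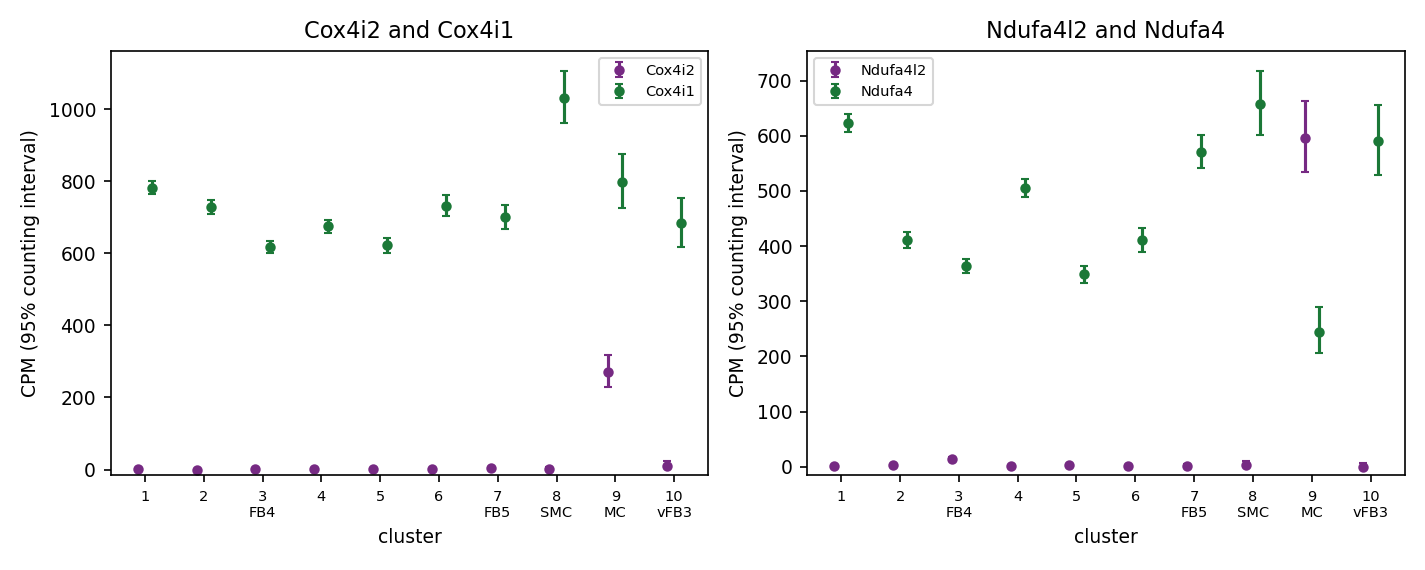
Levels in CPM, with exact 95% counting intervals, of Cox4i2 and Cox4i1 (left) and of Ndufa4l2 and Ndufa4 (right) in the 10 clusters. Cox4i2 and Ndufa4l2 stand clear of 0 in cluster 9, the MC-like cells, where Ndufa4 is at its lowest level of 244.6 CPM.

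Over all 83 nuclear members tested, Ndufa4 included, 20 were higher in MC-like cells (all genes: 21.6%) and 3 lower (all genes: 28.4%), with a median ratio of 1.111 against 0.9766 over all genes. The share of higher members was close to that of all genes. Sdhc, a membrane anchor of complex II, led with 114.4 CPM against 55.29 CPM (2.068, 1.591–2.646), followed by Atp5b, the catalytic subunit of ATP synthase, with 688.0 CPM against 363.1 CPM (1.895, 1.709–2.095). The Atp5b ratio was 1.946 in columns marked M and 1.857 in those marked F. Ndufs1 (1.737), Ndufv1 (1.587) and Cox8a (1.549) came next. Of 15 genes of the TCA cycle 7 were higher, beside the 21.6% of all genes, such as Idh3a of isocitrate dehydrogenase (1.844, 1.220–2.679), and Cycs, the cytochrome c that links complexes III and IV, had 195.3 CPM against 55.44 to 122.1 CPM in the other clusters. Cytosolic ribosomal protein genes summed to 0.7506 times the level of other cells, with 47 of 81 lower, and the summed endothelial markers reached 15.84 CPM against at most 2.401 CPM elsewhere, with Pecam1 and Prox1 at 0. The part of either in these ratios was not tested.

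In vFB3-like cells 16 of the 83 nuclear members were higher (all genes: 27.7%) and 5 lower (all genes: 21.4%), both below the shares of all genes, with a median ratio of 1.149 against 1.072. Ndufaf4 led on 35 UMIs (2.023, 1.403–2.828), followed by Atp5k, a dimer subunit of ATP synthase, with 321.6 CPM against 195.5 CPM (1.645, 1.416–1.902), and by Ndufa12 (1.628), Ndufa10 (1.583) and Sdhaf1 (1.563). Complex IV was the group with the smallest excess among complexes I to V, with 4820 CPM against 4690 CPM (1.028, 0.9896–1.067). Its members Cox6b2 (0.4173, 0.2510–0.6527), Cox7c (0.7222, 0.6448–0.8064) and Cox7a2l (0.7496, 0.6354–0.8785) were lower, as were Ndufs4 (0.7227) and Ndufa9 (0.7239).

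In FB4-like cells most nuclear members stood below their level in other cells, as did most genes of any kind. None of the 83 nuclear members was higher (all genes: 7.97%) and 17 were lower (all genes: 17.3%), and 4 (4.819%) had a ratio above 1 against 30.87% of all genes, with a median of 0.8403 against 0.9165 over all genes. The share of lower members (20.48%) was near that of all genes. The lowest were complex I genes, namely Ndufs8 (0.6465, 0.5930–0.7038), Ndufaf2 (0.6526), Ndufa12 (0.6723), Ndufs6 (0.6991) and Ndufc2 (0.6999). Complex II was nearest to other cells (0.9468, 0.9095–0.9855), and Sdha, its flavoprotein, had the highest ratio (1.059, 0.9715–1.153), followed by Cox6b2 (1.037), Sdhaf2 (1.014), Ndufs1 (1.002) and Sdhaf4 (0.9962). Cytosolic ribosomal protein genes were not low in these cells (1.022, 1.020–1.024), while mitochondrial ribosomal protein genes were (0.8519, 0.8420–0.8619). The mt- side of this cluster depended on the clustering, since its mt- ratio was 0.8807 (0.8751–0.8863) at resolution 1.0 but 0.9965 after clustering on data in which both marks had first been integrated. The nuclear ratio was 0.9013 (0.8922–0.9104) and 0.8740 (0.8687–0.8793) under these settings.

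**Figure D4:**
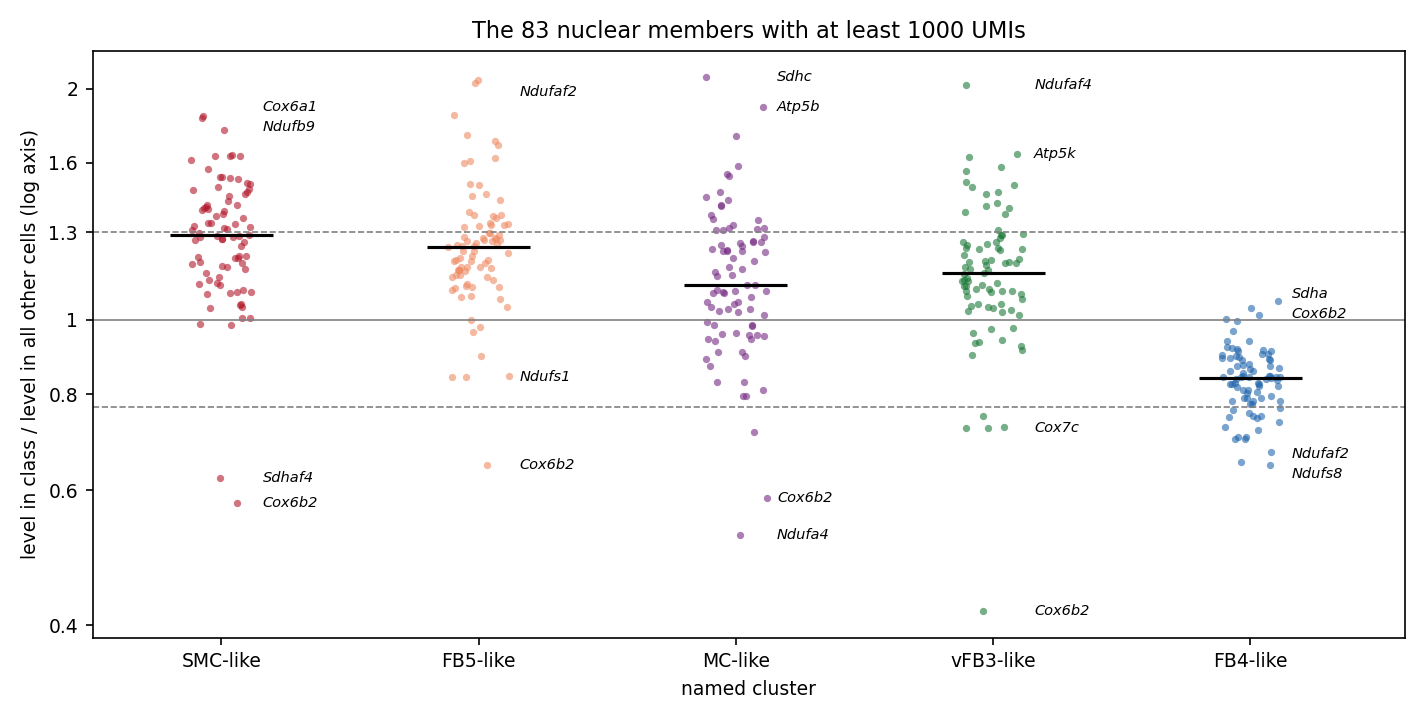
Ratio of the level in a named cluster to that in all other cells for each of the 83 nuclear members with at least 1000 UMIs, on a log axis. Black bars are medians, dashed lines mark 1.3-fold, and members among the 2 highest and 2 lowest of a cluster are named beside their points, apart from 1 that is not reported; medians run from 1.290 in SMC-like to 0.8403 in FB4-like cells.

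Isoform pairs differed between clusters in complex IV. Cox6b2, known from testis, made up 19.02% (18.46–19.58) of Cox6b UMIs in the library, from 24.21% (22.73–25.75) in cluster 2 to 6.620% (4.033–10.15) in vFB3-like cells. It was at 73.90 CPM or more in clusters 1 to 5 and at 51.22 CPM or less in clusters 6 to 10. Cox7a2l, which joins complexes III and IV, exceeded Cox7a2 most in clusters 2, 3, 5 and 6 (57.57% to 61.36% of the pair) and stood below it in FB5-like (44.78%, 42.45–47.13) and vFB3-like cells (43.75%, 38.50–49.11). In SMC-like (46.53%) and MC-like cells (45.84%) the intervals included equal shares. The muscle forms stayed near 0 in SMC-like cells too, with 0 Cox6a2 UMIs among 241 of the family, where the limit of 3 counts allows a share of up to 1.245%, and 3 Cox7a1 UMIs (3.985 CPM, 0.8219–11.65). Of the 3 genes for ATP synthase subunit c, Atp5g2 held 45.05% of UMIs, Atp5g1 35.59% and Atp5g3 19.36%.

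Within the mt- genes, 3 of 13 were called higher in SMC-like (all genes: 19.6%), FB5-like (all genes: 21.4%) and MC-like cells (all genes: 21.6%), and 1 of 13 lower in FB4-like cells (all genes: 17.3%), counts near or below the shares of all genes. None passed 1.3-fold in vFB3-like cells. The make-up of the mt- UMIs was described by shares. The complex I gene mt-Nd2 took 6.665% of mt- UMIs in MC-like and 4.718% in FB4-like cells, and it stood at 1.555 times (1.489–1.623) the level of other cells in the former. In contrast, the complex IV gene mt-Co1 took 13.70% of mt- UMIs among FB4-like cells and 13.02% and 12.48% among those of clusters 5 and 4, against 9.148% in vFB3-like and 9.832% in cluster 1. It was the only mt- gene with a higher level in FB4-like cells than elsewhere (1.047, 1.037–1.058), while mt-Cytb was at 0.7435 (0.7354–0.7517) there. The clusters with the higher mt-Co1 shares had 1769 to 2839 CPM of Fos and those with the lowest 109.2 to 190.9 CPM, but MC-like cells had 2541 CPM of Fos and a share of 10.82%.

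Fos, an immediate early gene that cell dissociation is known to induce, stood high where the nuclear members were low, when cells were compared directly and inside most clusters. The comparison was added after the data were seen. Cells with 5 or more Fos UMIs of 5000 (1591 cells) had 17209 CPM of nuclear members and cells with 0 (1562 cells) 20976 CPM, a ratio of 0.8204 (0.8165–0.8243). For the mt- members the ratio was 0.8854 (0.8827–0.8880). None of the 83 nuclear members was higher (all genes: 11.6%) and 16 were lower (all genes: 8.19%), with a median of 0.8141 against 0.9790 over all genes. The lowest were Ndufaf4 (0.6058, 0.5355–0.6847), Ndufaf2 (0.7151), Ndufs8 (0.7209), Uqcrq (0.7226) and Cox6b1 (0.7232). Of the 83 members, 3 stood above 1, among them Ndufs1 (1.202, 1.067–1.355) and Sdha (1.119, 1.036–1.209), while Atp5f1 (0.9759) and Sdhaf2 (0.9759) were just below. Mitochondrial ribosomal protein genes had a ratio of 0.8273 (0.8192–0.8355) and cytosolic ones 0.9257 (0.9242–0.9271).

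The Fos classes also differed in their clusters. Clusters 5, 4 and 3 held 29.35%, 27.66% and 25.14% of the cells with 5 or more Fos UMIs, and cluster 1 held 35.53% of those with 0 but 1.320% of those with 5 or more. Within clusters that had at least 10 cells of each class, the nuclear ratio was 0.9201 (0.8952–0.9456) in cluster 1, 0.9693 (0.9566–0.9821) in cluster 2 and 0.8506 (0.8250–0.8768) in cluster 6. Among FB4-like cells it was 0.8850 (0.8732–0.8971). It was 0.8003 (0.7768–0.8244) in FB5-like cells on 18 cells with 5 or more Fos UMIs and 0.8522 (0.8235–0.8819) in SMC-like cells on 22. Cluster 4 was the exception with 1.026 (1.008–1.044). The mt- ratio was below 1 in all 7 of these clusters, from 0.8639 (0.8477–0.8803) in cluster 1 to 0.9718 (0.9547–0.9891) in FB5-like cells.

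Across Amotl2 level the summed nuclear members differed by a few percent, and the direction depended on the cells compared. Cells were grouped by the Amotl2 UMIs left after thinning each to 5000 UMIs, and 94 shallower cells were left out. Nuclear levels were 18955 CPM (18902–19008) in 2361 cells with 0 UMIs, 19307 CPM in 958 cells with 1, 19625 CPM in 412 cells with 2 and 18493 CPM (18354–18633) in 283 cells with 3 or more. The level was highest at 2 UMIs, and the ends gave a ratio of 0.9756 (0.9678–0.9835). This direction did not hold across the marks, with 1.018 (1.005–1.032) in columns marked M and 0.9448 (0.9352–0.9544) in those marked F. Complex V stood at 1.005 (0.9900–1.021) and complex IV at 0.9346 (0.9193–0.9500). None of the 83 nuclear members was higher (all genes: 9.73%) and 1 was lower (all genes: 5.27%), with a median of 0.9873 against 1.019 over all genes. Inside clusters the ratio was 1.015 (0.9980–1.033) in cluster 1, 1.017 (0.9987–1.035) in FB4-like cells and 1.007 (0.9744–1.040) in FB5-like cells. In cluster 4, which held 126 of the cells with 3 or more Amotl2 UMIs, it was 0.9279 (0.9135–0.9426), with a median of 0.9395 over the 83 nuclear members against 1.017 over all genes.

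The mt- members were lower at each step of Amotl2, from 49155 CPM (49069–49241) over 47728 and 46958 CPM to 45852 CPM (45633–46072), a ratio of 0.9328 (0.9281–0.9376). It was 0.9458 in columns marked M and 0.9335 in columns marked F. No mt- member passed 1.3-fold. The ratios ran from 0.8512 for mt-Atp8 and 0.8830 for mt-Nd5 to 0.9926 (0.9781–1.007) for mt-Co1 and 1.015 (0.9873–1.043) for mt-Nd1, with 1.166 (0.9303–1.447) for the sparse mt-Nd6. Along the same steps the median depth of the cells went from 10302 to 12564 UMIs, cytosolic ribosomal protein genes had a ratio of 0.8777 (0.8753–0.8802), and cluster 4 went from 7.963% to 44.52% of the cells. The part of these in the mt- ratio was not tested, but inside clusters 1, 3 and 4 the ratio was 0.9723, 0.9609 and 0.9418, and inside the FB5-like cluster 1.007 (0.9864–1.028).

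The 1 nuclear member past the fold was Cox7a2l. Its level was lower at every step, from 373.8 CPM (366.4–381.4) over 343.1 and 321.8 CPM to 274.6 CPM (257.9–292.2), a ratio of 0.7346 (0.6877–0.7841). Within Fos classes the ratio was 0.7627 at 0 Fos UMIs, 0.6821 at 1 to 4 and 0.7510 at 5 or more. Cox7c went likewise from 790.5 to 658.2 CPM (0.8327, 0.7979–0.8687), and Cox6b2 (0.8203, 0.7147–0.9381), Sdhaf1 (0.8679) and Ndufa6 (0.8738) were the other low members. Along these steps cluster 2 went from 24.90% to 2.120% of the cells and cluster 4 from 7.963% to 44.52%. Cox7a2l had 425.2 CPM in cluster 2 and 294.7 CPM in cluster 4. Cox7c had 938.0 and 713.7 CPM there, and Cox6b2 104.1 and 73.90 CPM. The part of the clusters in these ratios was not tested. At the upper end stood Ndufs1 (1.136, 0.9329–1.374), Atp5k (1.113, 1.031–1.201), Sdha (1.101), Ndufa4 (1.094) and Atp5e (1.085). Among the other lists, 4 of 5 YAP/TAZ targets with at least 1000 UMIs were higher, including Amotl2, which chose the bins, and Cyr61 (261.7 to 673.0 CPM). Pdha1 of the pyruvate dehydrogenase complex was higher too (1.493, 1.359–1.637). None of the 10 glycolysis genes with at least 1000 UMIs passed the fold in either direction. Below that count, Slc16a1 stood at 2.101 (1.530–2.847) on 376 UMIs, Hk2 at 0.6102 (0.3658–0.9646) on 352 and Slc16a3 at 0.3051 (0.007407–1.879) on 32.

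**Figure D5:**
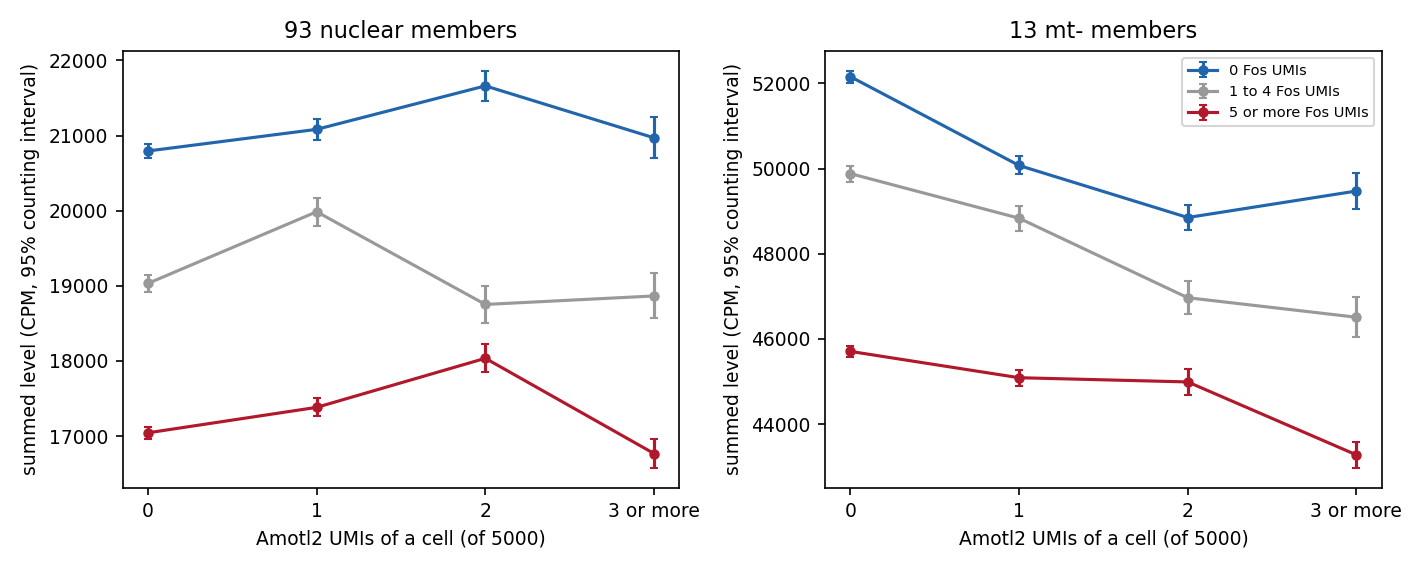
Summed level in CPM of the 93 nuclear members (left) and the 13 mt- members (right) against the Amotl2 UMIs of a cell after thinning to 5000, in 3 classes of Fos UMIs, with exact 95% counting intervals and axes that start above 0. The Fos classes are separate at each Amotl2 step in the nuclear panel, and the mt- level at 3 or more Amotl2 UMIs lies below that at 0 in each Fos class.

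With Fos held apart, the nuclear ratio between the ends of the Amotl2 scale was 1.008 (0.9948–1.022) at 0 Fos UMIs, 0.9912 (0.9744–1.008) at 1 to 4 and 0.9838 (0.9716–0.9960) at 5 or more. The mt- ratio was 0.9485, 0.9324 and 0.9468.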

How the data were processed

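Single-cell messenger RNA was measured in 1 library of LATS1/2 KO 1w. According to the methods and labels, the authors aligned reads to mm10 with Cell Ranger 3.0.2, used Seurat (3.0.1 in the processing notes), limited cells to between 1000 and 6000 genes and up to 7% mitochondrial UMIs, dropped genes found in fewer than 3 cells, and took out endothelial and immune clusters. The deposited values are the natural log of 1 plus UMIs per 10000 of a cell, computed by the authors. All nonzero values were whole multiples of 1 UMI (tolerance 0.001), so UMIs were read back and used for sums, while no count model was fitted. The alternatives tried are in the closing section. The file held 18619 genes, 1213 of them at 0. Members, lists and comparisons were chosen with earlier results of these data known.

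Clusters used Seurat 5.3.0 in R 4.3.3: 2000 variable genes without the members, Ndufa4l2, YAP/TAZ targets and sex-linked genes, UMI count and mitochondrial percent regressed out, 30 components, resolution 0.5. A marker counted at 10% of cells and 2 times the median of the other clusters, and a name needed every marker of a list. This rule was set after levels were seen, and Kcnj8 and Abcc9 (mural) and Ano1 (Cajal) were left out of their lists for earlier results. No doublet caller was run. Levels carry exact Poisson, ratios exact conditional binomial and shares Clopper-Pearson 95% intervals (scipy 1.17.1), and a share of 0 the limit of 3 counts. Thinning to 5000 UMIs was hypergeometric with a fixed seed. Calls were 1.3-fold among genes with at least 1000 UMIs, a rule of size without a test. The interval code was tested on simulated data. Named genes were every mt- member, the isoform families, the 10 highest nuclear members, those under 50 UMIs and the 5 highest and lowest ratios of each comparison. Others named, including the clusters' examples from the energy lists and the promoters shown, were chosen after their values were seen. Of the members, 105 had 1 GENCODE M21 locus and Atp5o.1 had no single one. Some genes that this rule selects are not reported here.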

Additional observations from a re-analysis of the deposited data

How the results depend on the processing

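No paired analysis was possible because 1 library was analysed and no result comes from a test. With 1 library, intervals cover counting error and not the spread between mice.

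The nuclear ratio of the highest over the lowest cluster (1.557) was 1.675 at resolution 1.0, 1.402 with a marker gate on each cell, 1.583 per UMIs outside mt- genes, 1.355 at a mitochondrial limit of 5%, 1.584 without cells holding Xist and a Y-linked UMI and 1.663 in cells of 8000 to 14000 UMIs. The mt- ratio (1.378) was 1.328 with the gate, 1.144 at the 5% limit, 1.412 in columns marked F and 1.345 at 8000 to 14000 UMIs. The highest and lowest clusters are chosen anew at each setting, so these ratios are above 1 by construction. At the 5% limit cluster 1 (21992 CPM) was highest in nuclear members and FB4-like cells (16234 CPM) lowest, and with the gate FB5-like cells (1.234) stood above SMC-like cells (1.136, 76 of 542 in the SMC-like cluster). At the 5% limit the mt- level was on the other side of 1 in MC-like (0.9838) and vFB3-like cells (0.9896). The FB4-like mt- ratio was 0.9965 with columns integrated before clustering. The Cox4i2 share in MC-like cells was 19.28% with the gate, 34.59% at the 5% limit, 34.66% in columns marked M, 18.77% in columns marked F and 19.05% at 8000 to 14000 UMIs.

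The nuclear ratio across Amotl2 changed side at the 5% limit (1.004), in columns marked M (1.018), between the ends of an unthinned ranking by Amotl2 per 10000 UMIs (1.040) and in cells with 0 Fos UMIs (1.008). It was 0.9448 in columns marked F, 0.9613 at thinning to 3000 UMIs, 0.9902 inside clusters, 0.9452 per UMIs outside mt- and ribosomal protein genes and 0.9838 in cells with 5 or more Fos UMIs. The mt- ratio was below 1 under all 11 alternatives, with 0.9676 at the 5% limit, 0.9458 in columns marked M, 0.9268 without cells holding Xist and a Y-linked UMI, 0.9657 at 8000 to 14000 UMIs, 0.9270 in the unthinned ranking, 0.9634 inside clusters, 0.9485 at 0 Fos UMIs and 0.9468 at 5 or more. Nuclear members past the fold numbered 1 higher in columns marked M (all genes: 12.2%), at 8000 to 14000 UMIs (11.3%), at 0 Fos UMIs (12.2%) and in clusters without a name (10.9%), where the share over all cells was 9.73%. Lower ones numbered 2 in columns marked F (all genes: 5.92%), at 8000 to 14000 UMIs (6.43%), at thinning to 3000 (9.23%), in the unthinned ranking (5.99%) and with genes of at least 300 UMIs (8.36%), 3 at 0 Fos UMIs (10.2%) and 0 at a fold of 1.5 (2.23%), where the share over all cells was 5.27%. The shares of all genes called were higher too, except at the fold of 1.5. The Fos classes, the count outside mt- and ribosomal protein genes and the restriction to clusters without a name were chosen after seeing the data. The cause of these differences was not tested.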
